A study of Mus musculus with 4 samples.

Results

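Genes that mark primordial germ cells, the embryonic precursors of eggs and sperm, were followed in posterior tissue of mouse embryos with reduced Cdx gene dosage. The set holds 9 genes: Prdm1, Prdm14, Tfap2c, Dppa3, Nanos3, Dnd1, Alpl, Kit and Ifitm3. A gene was included by its name on the array, with older names matched through the accession of the probe (Alpl is listed there as Akp2, Tfap2c as Tcfap2c). Of the 9 genes, 8 had a probe, out of 27573 genes with a probe in all. Of these, 7 were bright enough to be tested, among 14874 genes tested, and Nanos3 was too dim. No probe matched Prdm14 by symbol, accession or description, and that gene is not analysed here.

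Primordial germ cells arise in the posterior epiblast under BMP signals, which switch on the transcription factor genes Prdm1, Prdm14 and Tfap2c. They gather at the base of the allantois, show tissue non-specific alkaline phosphatase on their surface, and then move into the hindgut, which is part of the posterior tissue at early somite stages. Several of these genes are not confined to germ cells in the mouse embryo. Alpl, Kit, Ifitm3 and Tfap2c are also transcribed in other embryonic cells, whereas Nanos3 and Dppa3 are more restricted.

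The compared RNAs came from Cdx2+/-Cdx4-/- mutant embryos, which carry a single intact copy of Cdx2 and none of Cdx4, and from wildtype embryos, both at 5 to 6 somites. Cdx2 and Cdx4 encode homeodomain transcription factors of the posterior body axis. The tissue behind the last somite boundary was taken, and pools of 10 embryos gave the RNA of each genotype. Each of 4 Agilent arrays, all on 1 slide, carried both RNAs, 1 in the dye Cy3 and the other in Cy5. The arrays are labelled replicate 1 (array 1), its dye swap (array 2), replicate 2 (array 3) and its dye swap (array 4). The labels do not state separate pools for the replicates. The p-values therefore reflect how far these hybridisations differ from each other, a spread that may be technical.

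The labels did not settle which channel held which genotype. Arrays 1 and 3, labelled with the same dye orientation, correlated negatively in their Cy5 over Cy3 ratios (r = -0.43 over tested probes), as did arrays 2 and 4 (r = -0.43), while arrays 1 and 2, labelled as a dye swap, correlated positively (r = 0.82). The arrays were therefore turned so that the Cdx4 probe was lower in the numerator on each. The channel with less Cdx4 signal is called Cdx4-low RNA and the other Cdx4-high RNA. Cdx4-low RNA was in Cy5 on arrays 1 and 2 and in Cy3 on arrays 3 and 4. A difference between these pairs of arrays therefore cannot be told apart from a dye difference. By the labels of arrays 1 and 4, Cdx4-low RNA is that of the Cdx2+/-Cdx4-/- mutant and Cdx4-high RNA that of wildtype. By the labels of arrays 2 and 3, it is the reverse, and every sign given here turns. The aligned log2 ratio, Cdx4-low over Cdx4-high RNA, was -2.59, -2.11, -2.82 and -2.42 for Cdx4 on arrays 1 to 4, values that the alignment fixed. For Cdx2, which the alignment did not use, it was -0.77, -0.50, -0.45 and -0.45 (mean -0.54), and for Cdx1 it was 0.07, 0.32, 0.57 and 0.62 (mean 0.40). The sources used here do not say whether the Cdx4 probe lies in the deleted part of the gene. The share of spots that cleared the background filter was 50.6% to 56.4% in the Cy3 channels and 58.9% to 64.9% in the Cy5 channels.

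Alpl, Tfap2c and Ifitm3 were higher in Cdx4-low RNA, by 1.43-fold, 1.37-fold and 1.36-fold. Dppa3 was 1.24-fold higher on average and passed in only 1 of the 2 fits described next. Kit, Prdm1 and Dnd1 had negative mean ratios that did not pass in both, and Nanos3 was at the detection limit. The fits were made with limma, which tests the mean log2 ratio of each gene against 0 with a spread moderated over all genes. The stricter fit averaged the arrays that share a labelled replicate number (labelled-number pairing). The other averaged array 1 with 3 and array 2 with 4, which balances the dyes (exchange pairing). A gene is said to have changed, risen or fallen only where its Benjamini-Hochberg adjusted p-value over all genes was under 0.05 in both. SEs and adjusted p-values are those of the labelled-number pairing unless the other is named.

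In the labelled-number pairing 3 of the 7 tested germ cell genes were called higher and 0 lower, where 3.23% of all tested genes were called higher and 4.32% lower. In the exchange pairing 4 were called higher and 1 lower, where 22.5% of all tested genes were called higher and 19.5% lower. With the sign given by the labels of arrays 2 and 3, the first of these counts reads 0 higher and 3 lower, beside 643 genes higher and 480 lower over the whole table. The median aligned log2 ratio of the 7 genes was 0.31, beside 0.02 over all tested genes. In tissue RNA a change in the number of cells of a type and a change in RNA per cell cannot be told apart.

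**Figure D1:**
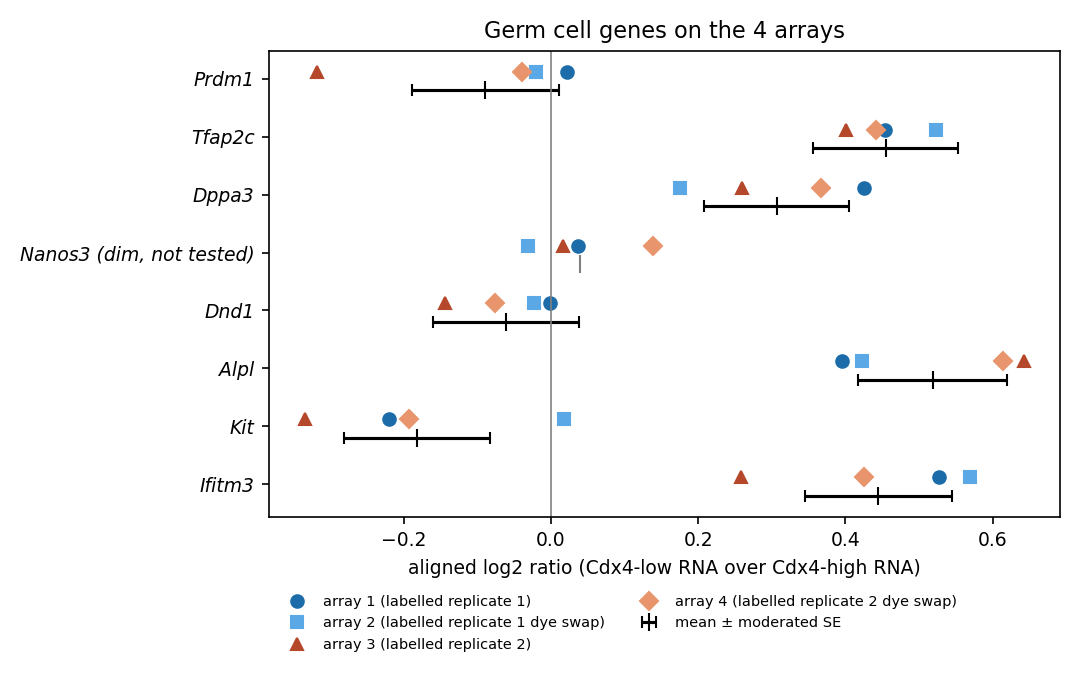
Aligned log2 ratio (Cdx4-low over Cdx4-high RNA, horizontal axis) of the 8 germ cell genes with a probe. Each symbol is 1 array, and the black bar gives the mean with its moderated SE from the labelled-number pairing. Alpl, Tfap2c, Ifitm3 and Dppa3 lie above 0 on all 4 arrays, while Prdm1, Dnd1, Kit and Nanos3 lie around or below 0.

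Prdm1 encodes Blimp1, a zinc finger repressor that is needed to set up the germ cell lineage and to silence somatic genes in it. Its probe (mm8 chr10:44125900-44125959) had normalised intensities of 257, 245, 213 and 245 in Cdx4-low RNA of arrays 1 to 4, against 253, 249, 265 and 252 in Cdx4-high RNA. The RNAs overlapped, and array 3 alone set them clearly apart. Its aligned log2 ratios were 0.02, -0.02, -0.32 and -0.04, with a mean of -0.09 (SE 0.0999, adjusted p = 0.726, and 0.149 in the exchange pairing). Array 3 lay far from the other arrays, at a share of the range (a ratio of 0.822) just under Dixon's critical value for 4 samples. Prdm1 was called in 0 of the 17 alternative ways of processing that carried a test.

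Tfap2c encodes the transcription factor AP-2 gamma, which acts downstream of Blimp1 in germ cells and is also active in surface ectoderm and trophoblast. Its probe (mm8 chr2:172249565-172249624) had intensities of 616, 693, 632 and 639 in Cdx4-low RNA, against 450, 482, 478 and 471 in Cdx4-high RNA. Every Cdx4-low value was above every Cdx4-high value, though the share of all tested genes without overlap was not counted. The aligned log2 ratios of 0.45, 0.52, 0.40 and 0.44 were closer together than those of the other tested germ cell genes (SD 0.0506, n = 4 arrays), and the median SD of the 500 genes nearest to it in brightness was 0.116. The mean of 0.45 (SE 0.0985) passed in both pairings, with an adjusted p of 0.00394 and, in the exchange pairing, 1.08e-17. Among the ratios of all tested genes it stood at percentile 98.8.

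The related gene Tfap2a, whose product AP-2 alpha marks surface ectoderm and neural crest, had a mean aligned log2 ratio of 0.14 (adjusted p = 0.485, and 0.0142 in the exchange pairing). The ratio of Tfap2c exceeded that of Tfap2a on 4 of 4 arrays, by 0.23, 0.37, 0.29 and 0.36 on the log2 scale (mean 0.31, SD 0.0668). An exact two-sided sign-flip test, which treats the 4 arrays as independent, gave p = 0.125. This is the smallest p that this test allows with 4 arrays, so it could not have called any difference. Of the neural and surface ectoderm markers, 5 of 8 tested genes were higher and 0 lower in both pairings, and their summed intensity was 4610 to 4910 in Cdx4-low RNA against 3220 to 3510 in Cdx4-high RNA. The part of those cells in the Tfap2c ratio was not tested.

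Dppa3 encodes Stella, a maternal and germ line protein that protects DNA methylation in the zygote and is a standard mark of newly formed germ cells. Its probe (mm8 chr6:122595735-122595794) was dim, with intensities of 250, 278, 244 and 323 in Cdx4-low RNA against 186, 247, 203 and 250 in Cdx4-high RNA. The RNAs overlapped across arrays, although Cdx4-low RNA was the brighter within each array. The aligned log2 ratios were 0.43, 0.18, 0.26 and 0.37, with a mean of 0.31 (SE 0.0983). Its adjusted p was 0.0565 in the labelled-number pairing and 1.64e-08 in the exchange pairing, so it did not pass in both.

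The size of the Dppa3 difference varied with the treatment of background and signal. Uncorrected mean signals of its spot were 170 to 272 in Cdx4-low RNA and 133 to 209 in Cdx4-high RNA, while the 153 negative control spots had median signals of 98 to 106 (Cy3) and 93 to 96.8 (Cy5). The offset of 50 added to both channels in the main processing pulls ratios of dim probes toward 0. From the scanner's own background-subtracted and dye-normalised signals the log2 ratios were 1.03, 1.12, 0.59 and 0.99, with a mean of 0.93 (SD 0.234, n = 4 arrays), which is 1.91-fold. On those signals Dppa3 had an adjusted p of 0.00252 in the labelled-number pairing. The exchange pairing on those signals gave 0.00631, in a combination chosen after seeing the data. Over all alternatives Dppa3 was called higher in 7 of 17, among which the scanner's processed signals and the authors' series table gave the same values. Its mean was positive in each, between 0.09 and 0.93. The lowest came from the arrays as labelled, where the dye-swap pairs nearly cancel.

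Nanos3 encodes an RNA-binding protein that keeps migrating germ cells alive. Its probe (mm8 chr8:87066416-87066475) was well above background in Cdx4-low RNA on 1 of 4 arrays and in Cdx4-high RNA on 2 of 4. Uncorrected signals were 115 to 132 in Cdx4-low RNA and 109 to 130 in Cdx4-high RNA, close to the negative controls given for Dppa3. The log2 ratios of 0.04, -0.03, 0.02 and 0.14 are therefore those of spots near background, and a difference was not detectable at this signal.

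Dnd1 encodes a further RNA-binding protein of germ cells, which shields transcripts from microRNAs and which is mutated in the mouse Ter strain with germ cell loss. Its probe (mm8 chr18:36889770-36889829) gave 308, 318, 289 and 298 in Cdx4-low RNA against 308, 323, 319 and 314 in Cdx4-high RNA. These ranges overlapped, and the log2 ratios of -0.002, -0.02, -0.14 and -0.08 averaged -0.06 (SE 0.0987, adjusted p = 0.833, and 0.349 in the exchange pairing). It was called in 0 of 17 alternatives.

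**Figure D2:**
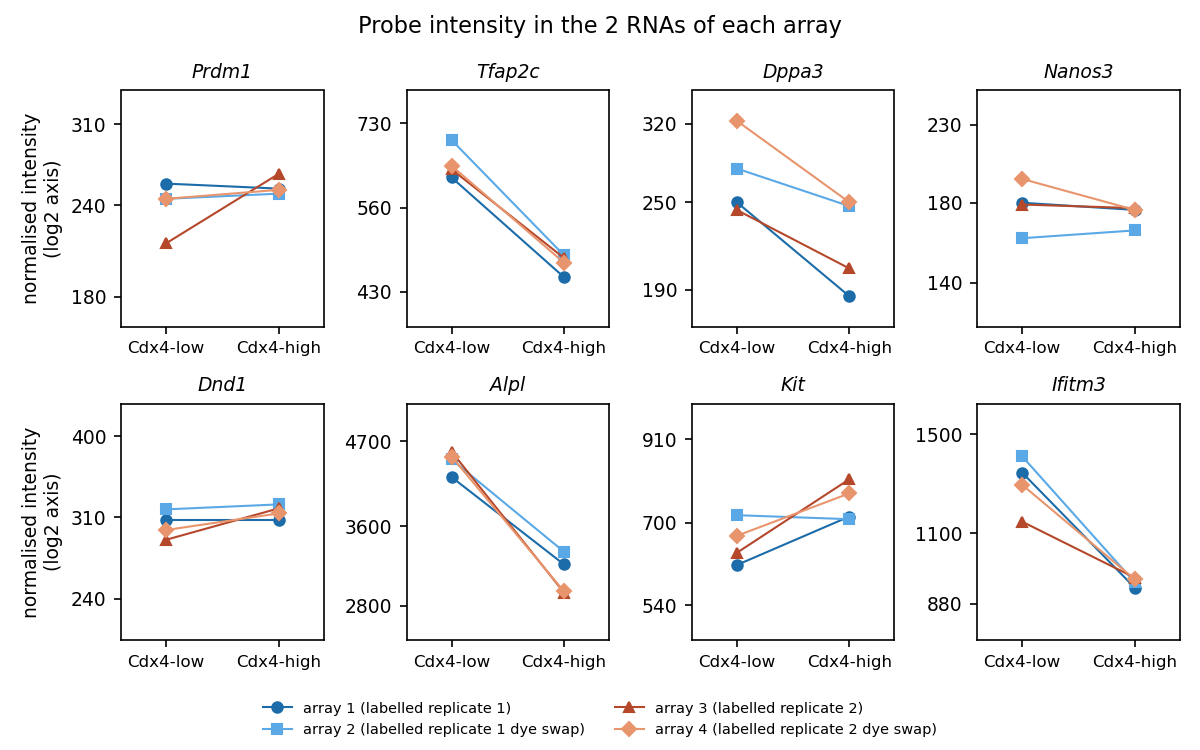
Normalised probe intensity (log2 axis, the same number of doublings in each panel) of the 8 germ cell genes in Cdx4-low RNA (left) and Cdx4-high RNA (right), with a line for each array. The Alpl, Tfap2c and Ifitm3 lines fall to the right without overlap between the RNAs, while the values of Prdm1, Dppa3, Nanos3, Dnd1 and Kit overlap. The share of all tested genes without overlap was not counted.

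The transcripts of surface proteins by which germ cells are recognised or sorted behaved unequally. Alpl encodes tissue non-specific alkaline phosphatase, whose staining is the classical way to see primordial germ cells. Its probe (mm8 chr4:137013819-137013878) had intensities of 4200, 4440, 4550 and 4480 in Cdx4-low RNA, against 3190, 3320, 2920 and 2930 in Cdx4-high RNA. Every value of Cdx4-low RNA lay above every value of Cdx4-high RNA, though the share of all tested genes without overlap was not counted. The aligned log2 ratios were 0.40, 0.42, 0.64 and 0.61, with a mean of 0.52 (SE 0.101), at percentile 99.2 of all tested genes. The call held in both pairings, with an adjusted p of 0.00136 and, in the exchange pairing, 8.16e-23. Arrays 1 and 2, with Cdx4-low RNA in Cy5, averaged 0.41, and arrays 3 and 4, with it in Cy3, averaged 0.63.

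Ifitm3 encodes Fragilis, an interferon-induced membrane protein that appears on epiblast cells competent to become germ cells. Its probe (mm8 chr7:140861012-140861071) had intensities of 1330, 1400, 1140 and 1280 in Cdx4-low RNA, against 926, 942, 956 and 951 in Cdx4-high RNA. The RNAs did not overlap, though the share of all tested genes without overlap was not counted. Cdx4-high RNA varied less from array to array. The aligned log2 ratios were 0.53, 0.57, 0.26 and 0.43, with a mean of 0.44 (SE 0.1, adjusted p = 0.00548, and 5.78e-17 in the exchange pairing). The call was lost without array 1, where the mean was 0.46 and the adjusted p 0.0636. Here the arrays ran the other way from Alpl. Arrays 1 and 2, with Cdx4-low RNA in Cy5, averaged 0.55, and arrays 3 and 4, with it in Cy3, averaged 0.34.

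Ifitm1 and Ifitm2 are close paralogs in the same family of membrane proteins. Ifitm1 had ratios of 0.17, 0.07, -0.21 and -0.10 (mean -0.02, adjusted p = 0.964, and 0.809 in the exchange pairing). For Ifitm2 they were 0.05, 0.08, -0.07 and -0.02 (mean 0.01, adjusted p = 0.985), and a second, dimmer probe averaged 0.08. The ratio of Ifitm3 exceeded that of Ifitm1 by 0.36, 0.50, 0.47 and 0.53 on the 4 arrays (mean 0.46, SD 0.0749) and that of Ifitm2 by 0.48, 0.49, 0.33 and 0.45 (mean 0.44, SD 0.072). Both differences were positive on 4 of 4 arrays. The exact two-sided sign-flip test gave p = 0.125 for each, and 0.125 after adjustment over the 3 paralog pairs compared. That is the smallest p it can give here, so it could not have called either difference. Whether probes of this family bind each other's transcripts was not tested. Over all paralogs of the germ cell genes, 18 were tested, 0 passed in both pairings in either direction, and the median ratio was 0.02.

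Kit encodes the receptor tyrosine kinase that lets germ cells, melanoblasts and blood progenitors survive and migrate. Its probe (mm8 chr5:75937959-75938018) is printed in 10 spots on each array, which show the measuring error within an array. The spots had a median log2 ratio of -0.21 on array 1, 0.001 on array 2, -0.34 on array 3 and -0.18 on array 4, with SDs between 0.0541 and 0.078. On arrays 1, 3 and 4 all 10 spots were negative, and on array 2 it was 5 of 10, so the arrays differed by more than the spots within them. Averaged intensities were 613, 717, 637 and 672 in Cdx4-low RNA against 714, 708, 803 and 768 in Cdx4-high RNA, and these ranges overlapped. The mean ratio of -0.18 (SE 0.0996) had an adjusted p of 0.337 in the labelled-number pairing and of 0.00137 in the exchange pairing, so it did not pass in both.

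The Kit ligand gene Kitl, whose product somatic cells present to germ cells, had ratios of -0.14, 0.004, -0.54 and -0.42 (mean -0.27, adjusted p = 0.135, and 6.1e-07 in the exchange pairing). A second Kitl probe averaged -0.01. Endothelial and haematopoietic markers, among which Kit-bearing progenitors fall, were lower in both pairings for 7 of 18 tested genes and higher for 0. Their summed intensity was 20200 to 20700 in Cdx4-low RNA against 25200 to 27100 in Cdx4-high RNA, with Kdr at -0.97, Etv2 at -0.72 and Sox7 at -0.48. The part of those cells in the Kit ratio was not tested.

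Promoter sequences are shown for Alpl and Ifitm3, which rose, and for Kit, which did not, to set the letters before their start sites beside each other. They were taken from RefSeq (GRCm38.p6), which gave a promoter for 5 of the 9 genes in the table used here, and are the 250 bases before a start site, written 5′ to 3′ on the strand of the gene. Capitals mark matches, on either strand, to TTTAT (the core of CDX binding sites), GCCNNNGGC (an AP-2 site) or GGGCGG (a GC box). Overlapping matches run together.
Alpl, first start, chr4:137796385-137796634, minus strand: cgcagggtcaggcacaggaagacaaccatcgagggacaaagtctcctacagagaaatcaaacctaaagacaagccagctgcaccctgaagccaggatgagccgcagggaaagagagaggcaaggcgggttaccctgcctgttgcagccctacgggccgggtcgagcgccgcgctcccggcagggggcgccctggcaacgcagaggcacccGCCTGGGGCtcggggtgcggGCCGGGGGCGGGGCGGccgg
Alpl, second start, chr4:137766476-137766725, minus strand: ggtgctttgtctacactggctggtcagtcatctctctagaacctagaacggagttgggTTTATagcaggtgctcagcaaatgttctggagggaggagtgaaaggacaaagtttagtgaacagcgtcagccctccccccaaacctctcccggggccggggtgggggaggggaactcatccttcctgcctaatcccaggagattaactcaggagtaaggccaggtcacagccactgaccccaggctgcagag
Ifitm3, chr7:141010745-141010994, minus strand: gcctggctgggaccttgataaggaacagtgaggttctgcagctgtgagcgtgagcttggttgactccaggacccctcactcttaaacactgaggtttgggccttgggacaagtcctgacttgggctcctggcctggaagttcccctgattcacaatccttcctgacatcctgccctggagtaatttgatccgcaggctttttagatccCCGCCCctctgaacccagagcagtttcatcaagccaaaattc
Kit, chr5:75574737-75574986, plus strand: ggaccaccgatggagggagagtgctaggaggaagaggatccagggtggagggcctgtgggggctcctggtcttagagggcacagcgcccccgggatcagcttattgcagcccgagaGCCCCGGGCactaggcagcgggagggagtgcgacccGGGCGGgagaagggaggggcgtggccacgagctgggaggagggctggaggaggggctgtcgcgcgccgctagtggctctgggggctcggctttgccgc

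The first Alpl start and Kit have GC-rich windows, with 68.4% and 70.8% G or C against a median of 52.4% over all promoters, and Ifitm3 lies near that median at 53.6%. The TTTAT core was found, among the windows shown, only before the second Alpl start, 192 bases upstream, and not in the windows of the first Alpl start, Ifitm3 or Kit. Of 32851 promoters of the same length, 37.3% hold it. AP-2 matches stood before the first Alpl start (2) and Kit (1), and 13.7% of promoters hold this motif. GC boxes stood before the first Alpl start (2), Ifitm3 (1) and Kit (1), and 32.7% of promoters hold them. Windows of Prdm1 and Nanos3 are not printed. That of Prdm1, which did not rise, had 59.2% G or C and 0 matches to each motif. The Nanos3 window had 56.4% G or C, 0 TTTAT cores, 1 AP-2 match and 1 GC box. These are matches of letters, and no binding was measured.

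**Figure D3:**
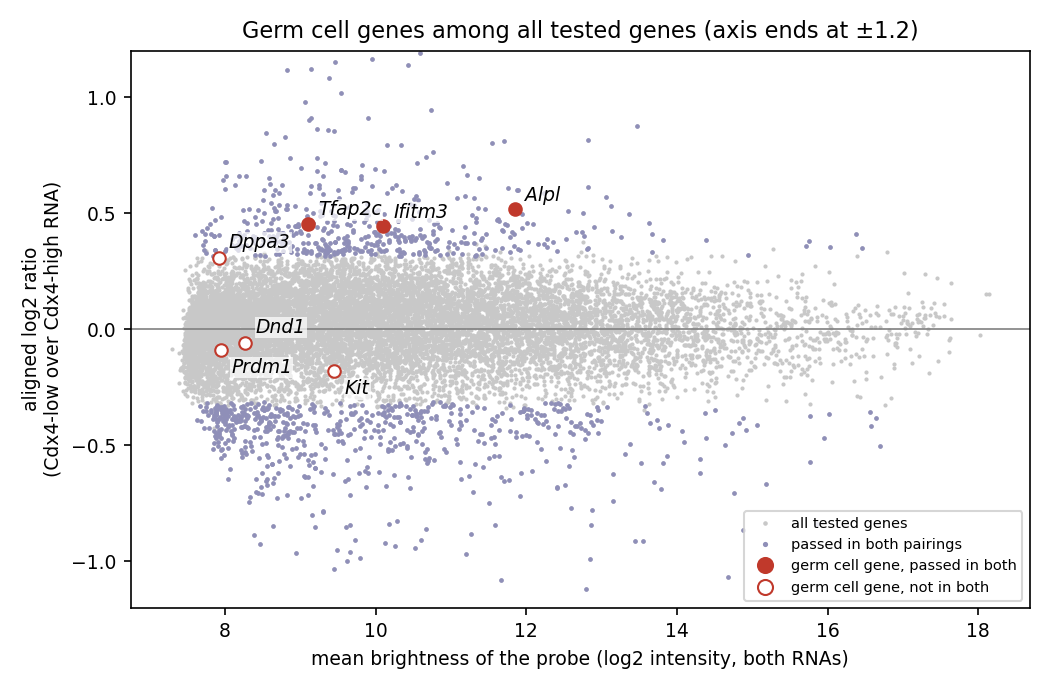
Aligned log2 ratio (vertical axis, Cdx4-low over Cdx4-high RNA, shown between -1.2 and 1.2) against mean probe brightness in log2 intensity (horizontal axis) for all 14874 tested genes, with the 7 tested germ cell genes in red. Alpl, Tfap2c and Ifitm3 (filled) lie at the upper edge of the cloud among genes of like brightness, and Dppa3, Prdm1, Dnd1 and Kit (open) did not pass in both pairings.

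Of the 12 tested genes of BMP and WNT signals that induce germ cells, 0 passed in both pairings, and the median aligned log2 ratio was -0.04. In the exchange pairing 3 were called higher and 3 lower, where 22.5% and 19.5% of all tested genes were. Bmp4, the ligand whose dose sets germ cell number in the mouse, averaged -0.04 (adjusted p = 0.902). Its ratios were -0.28 and -0.12 on arrays 1 and 2 (Cdx4-low RNA in Cy5) and 0.08 and 0.16 on arrays 3 and 4 (in Cy3). Bmp8b, a further inducing ligand, was not well above background in either RNA on any array.

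Germ cells share transcription factors with pluripotent cells. Among 15 tested genes of this kind, 2 were higher and 0 lower in both pairings, and the median was -0.02. Sox2, which germ cells share with the neural plate, rose with ratios of 0.57, 0.47, 0.61 and 0.43 (mean 0.52, SE 0.0983, adjusted p = 0.00113). It also belongs to the list of neural and surface ectoderm markers, of which 5 of 8 were higher. Tcea3, an elongation factor gene, averaged 0.39 (adjusted p = 0.012), with 0.32 at its other probe. Pou5f1, which encodes Oct4 and is kept on in germ cells, averaged -0.05 (adjusted p = 0.879, and 0.475 in the exchange pairing), and Nanog was not well above background in either RNA on any array.

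Genes of germ cell migration and survival moved in both directions, with 2 of 15 higher, 1 lower and a median of 0.04. Cxcr4, the chemokine receptor that steers germ cells toward the gonad, had ratios of 0.57, 0.61, 0.32 and 0.35 (mean 0.46, adjusted p = 0.0044), and its other probe averaged 0.32. Cxcl12, the gene of its ligand, had ratios of -0.25, -0.17, -0.74 and -0.81 (mean -0.49, adjusted p = 0.0064), and its other probe averaged -0.16. Receptor and ligand thus had opposite signs on each array at these probes, though Cxcr4 is also active in endoderm and vessels, and Cxcl12 in mesoderm. Fut4, which encodes a fucosyltransferase, averaged 0.41 (adjusted p = 0.00824).

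Of 24 listed genes that come on later in the germ line, 23 matched a probe and 7 were bright enough to be tested. Of these, 0 passed in both pairings, and the median was 0.06. Ddx4, the mouse vasa gene, averaged 0.04 (adjusted p = 0.914), and Dazl was not tested. The first Dazl probe was well above background on 1 of 4 arrays, in Cdx4-low RNA only, and the second on 1 of 4, in Cdx4-high RNA only. Of 17 tested genes for the chromatin and DNA methylation changes of germ cells, 0 passed in both pairings, and the median was -0.02.

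**Figure D4:**
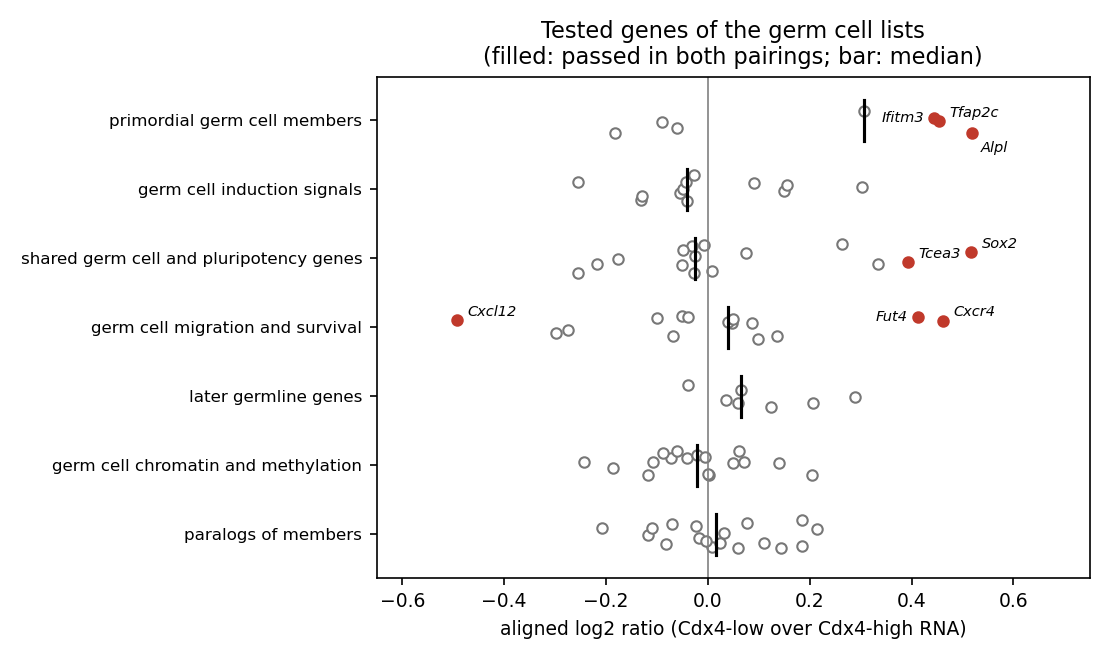
Aligned log2 ratio (horizontal axis, Cdx4-low over Cdx4-high RNA) of each tested gene of the germ cell set and 6 related lists. Each circle is a gene, filled where it passed in both pairings, and the black bar is the median of a list. The median of the germ cell set is 0.31, and those of the related lists lie between -0.04 and 0.06. Marker lists of other cells, not drawn here, had medians from -0.70 (visceral endoderm) to 0.50 (primitive erythroid). The median of the neural and surface ectoderm markers was 0.44.

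Markers of other cells in the dissected tissue also differed between the RNAs. Visceral endoderm markers fell in both pairings for 16 of 18 tested genes (Afp -2.04, Cubn -1.12, Rbp4 -1.07), with a summed intensity of 99200 to 104000 in Cdx4-low RNA against 175000 to 186000 in Cdx4-high RNA. Hindgut and definitive endoderm markers, the tissue that germ cells enter, rose for 3 of 15 and fell for 0 (Krt7 0.37, Krt18 0.36, Trh 0.32), and their sums were 148000 to 163000 in Cdx4-low RNA against 120000 to 145000 in Cdx4-high RNA. Primitive erythroid markers rose for 3 of 6 (Hbb-bh1 1.35, Hba-x 1.12, Hbb-y 0.72), with sums of 6550 to 7090 in Cdx4-low RNA against 3680 to 4030 in Cdx4-high RNA. Allantois and lateral plate markers rose for 1 of 18 and fell for 5 (Vcam1 -0.62, Hoxa11 -0.44, Tbx20 -0.38), with sums of 37600 to 39600 in Cdx4-low RNA against 42100 to 42800 in Cdx4-high RNA. Trophoblast and decidua markers rose for 2 of 8 (Krt7 0.37, Prl3d1 0.33) and fell for 2 (Prl8a2 -1.41, Plac1 -0.47), with a median of 0.22 and sums of 6550 to 6900 in Cdx4-low RNA against 6210 to 6700 in Cdx4-high RNA. Tpbpa, a trophoblast marker, was below the detection filter. All 18 posterior tissue markers were bright enough to be tested, and 2 were higher (Cdx1, Wnt3a) and 3 lower (Cdx2, Cyp26a1 and Cdx4, whose sign the alignment fixed). The 7 tested germ cell genes summed to 7570 to 8090 in Cdx4-low RNA against 5930 to 6270 in Cdx4-high RNA, a sum that Alpl dominates. The part of these other cells in the germ cell gene ratios was not tested.

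The scanner's processed signals and the authors' series table gave the same values but count as separate alternatives. The calls of Alpl and Tfap2c were made in 14 of 17 alternatives and that of Ifitm3 in 13 of 17. They were lost when the arrays were read as labelled, where the dye-swap pairs nearly cancel and the ratios were -0.014 for Alpl, -0.0072 for Tfap2c and 0.03 for Ifitm3. They were also lost under median centring of each array in place of loess (adjusted p = 0.763 for each) and when dim probes were kept in the fit, where the adjusted p was 0.118 for Alpl, 0.0995 for Tfap2c and 0.129 for Ifitm3. Median centring moved the median of all tested genes to 0.28, and under it 6 genes were called higher and 2 lower in all, beside 480 and 643 in the main processing. Relative to that median the ratio was 0.69 for Alpl, 0.41 for Tfap2c, 0.50 for Ifitm3 and 0.12 for Dppa3, and it was -0.19 for Kit, -0.31 for Prdm1 and -0.22 for Dnd1.

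**Figure D5:**
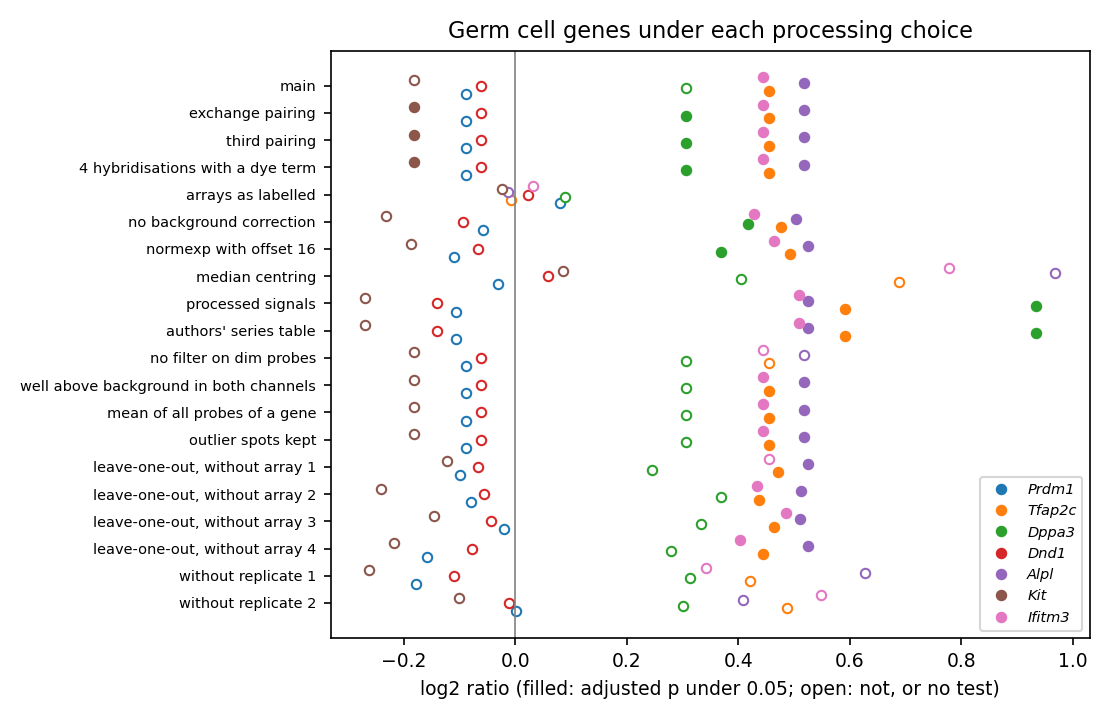
Log2 ratio (horizontal axis, Cdx4-low over Cdx4-high RNA, except mutant over wildtype for the arrays as labelled) of the 7 tested germ cell genes under each processing choice (rows), not corrected for the median of all genes. Filled symbols had an adjusted p under 0.05 and open ones did not or had no test. Alpl, Tfap2c and Ifitm3 stay between 0.34 and 0.97 except with the arrays as labelled, and Dppa3 ranges from 0.09 to 0.93.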

How the data were processed

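Whole mouse genome arrays of 2 colours were read by the authors; the submitters' processing notes name Agilent Feature Extraction 9.5.3. The deposited scanner files give, per the file headers, an intensity for each spot as mean signal and median local background in Cy3 and Cy5, with processed signals and a log10 ratio of Cy5 over Cy3. The authors' deposited series table holds the same log10 ratios, within 1e-05, with the sign turned on the dye swaps.

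The normexp background correction (offset 50) and loess within each array, with control spots at weight 0, were run in limma 3.58.1 under R 4.3.3. Outlier spots (103 to 167 per array) were left out and spots of a probe averaged. A probe was tested if well above background on all 4 arrays in at least 1 of the aligned channels, and the brightest tested probe stood for its gene. Of 41174 probes, 23374 were named by accession, 6733 by current symbol and 2919 from an older symbol through RefSeq, and 8148 kept the file's name. The fits used lmFit and eBayes on 2 averaged pairs, with a threshold of 0.05 on the adjusted p. The labelled-number pairing had 24.1 prior degrees of freedom beside 1 residual, and the exchange pairing an infinite prior, so that there all genes share an SE of 0.0506. All 1123 genes called in the first were also called in the second. The number of arrays limits the precision. The code was tested on simulated data.

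Members and gene lists were chosen with earlier results of these data known. Named genes are all members, Cdx1, Cdx2 and Cdx4, up to 3 genes per list with the largest ratio among those passing both pairings with the same sign on 4 arrays, and Ifitm1, Ifitm2, Tfap2a, Kitl, Pou5f1, Nanog, Sox2, Bmp4, Bmp8b, Ddx4 and Dazl. Tpbpa, Prl3d1 and Wnt3a were named after their values were seen. Promoters are from RefSeq (GRCm38.p6), and probe positions are those of the scanner files (mm8). Alternatives covered the pairing, alignment, background, normalisation, source of the ratio, filter, probe summary, outlier spots and each array left out.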

Additional observations from a re-analysis of the deposited data

How the results depend on the processing

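Of the 7 germ cell genes tested, 3 were called higher and 0 lower in the main processing, with a median log2 ratio of 0.31, beside 480 genes higher and 643 lower in all. Lower calls numbered 1 in the exchange pairing, the third pairing (arrays 1 with 4 and 2 with 3) and the fit of 4 hybridisations with a dye term, where all genes gave 3354 higher and 2900 lower, 4457 and 3730, and 3804 and 3128. With the arrays as labelled 0 were called higher and the median was 0.02234 (3 and 26 genes in all), and the ratios of Alpl and Tfap2c reversed to -0.01364 and -0.007206, since the dye-swap pairs run the same way and cancel. Median centring called 0 higher with a median of 0.40 (6 and 2 genes in all, and 580 at an unadjusted p under 0.05), and keeping dim probes called 0 higher (10 and 4 genes of 27573). The cause was not tested for either. The median was 0.42 without background correction, 0.37 with an offset of 16, and 0.51 with the scanner's processed signals or the authors' series table (623 and 1049 genes in all). In combinations chosen after seeing the data, the exchange pairing with processed signals or the series table called 2 lower with a median of 0.51 (3753 and 3418 genes in all), and with median centring 0 higher with a median of 0.40 (1 and 0 genes in all). Leaving out 1 array gave 2 to 3 higher, 0 to 0 lower and a median of 0.24 to 0.37, and all genes gave 138 and 115 without array 1, 224 and 398 without array 2, and 254 and 293 without array 3. Leaving out a labelled replicate gave medians of 0.3004 and 0.3133 with no test. Signal over background limits Dppa3, and Nanos3 could not be tested.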
